A study of Homo sapiens with 6 samples.

Results

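The genes described here are 9 members of the TALE class of homeobox transcription factors, *PBX2*, *PBX3*, *PBX4*, *MEIS1*, *MEIS2*, *MEIS3*, *PKNOX1*, *PKNOX2* and *TGIF1*, of 60671 gene rows in each count file. They were chosen by gene symbol, with their read counts in these libraries and their changes between the treatments already known, so the fitted values below describe them and are no independent support for any pattern. They are not the whole class. Each symbol was matched to the Ensembl identifier of the count files through GENCODE version 44, and all 9 were found.

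The cells were K562, a human chronic myeloid leukemia line, grown as 1 clone in which doxycycline switches on M.CviPI, a GpC methyltransferase, joined to Lamin B1 with Flag and NLS tags. EZH2i cultures received 1 µM GSK343, an inhibitor of the histone methyltransferase EZH2, for 72 h, and DMSO cultures received 0.1% DMSO as vehicle for the same time. Every culture of both groups also received 1 µg/mL doxycycline during the last 24 h, so the fusion was induced in the controls too. There were 3 separate cultures per group, each measured by 3′ mRNA sequencing, which reads transcripts close to their poly(A) tail, and the comparison asks which transcripts differ once EZH2 activity is blocked.

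TALE proteins carry a homeodomain with an inserted loop of 3 amino acids. PBX proteins bind DNA together with HOX proteins, while MEIS and PKNOX proteins bind PBX through a domain outside the homeodomain, keep it in the nucleus and add their own DNA contact. TGIF1 differs in role, as a corepressor that joins SMAD proteins and the retinoid X receptor. In blood, MEIS1 acts in stem cells and megakaryocytes and is known as a leukemia cofactor of HOXA9 together with PBX3. Polycomb repressive complex 2, whose catalytic subunit is EZH2, places H3K27me3 at many CpG-rich promoters of developmental regulators, homeobox genes among them.

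RefSeq promoter windows (GRCh38.p14), which run from 250 bases before a transcription start to 50 bases after it, were found for 8 of the 9 genes and number 16 in all, 7 of them for *TGIF1*. The windows of *MEIS3* and *PBX3* are shown because these genes had the largest fitted differences, and that of *MEIS2* because it had the highest level. They lie on the minus strand at chr19:47419478-47419777, on the plus strand at chr9:125747933-125748232 and on the minus strand at chr15:37099057-37099356, in that order. Sequences are written 5′ to 3′ on the gene's strand, with each CpG dinucleotide in capitals.
MEIS3: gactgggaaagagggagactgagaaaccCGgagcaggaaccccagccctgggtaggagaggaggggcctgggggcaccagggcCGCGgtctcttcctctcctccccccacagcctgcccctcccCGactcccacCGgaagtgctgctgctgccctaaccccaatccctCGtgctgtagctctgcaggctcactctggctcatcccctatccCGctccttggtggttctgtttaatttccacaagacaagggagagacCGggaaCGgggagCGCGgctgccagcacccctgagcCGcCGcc
PBX3: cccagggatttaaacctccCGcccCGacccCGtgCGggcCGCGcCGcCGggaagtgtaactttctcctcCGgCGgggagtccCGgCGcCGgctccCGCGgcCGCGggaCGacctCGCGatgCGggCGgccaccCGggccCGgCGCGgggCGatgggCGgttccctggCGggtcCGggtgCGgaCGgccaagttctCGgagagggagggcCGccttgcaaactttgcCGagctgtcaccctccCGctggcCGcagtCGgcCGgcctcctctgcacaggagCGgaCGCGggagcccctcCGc
MEIS2: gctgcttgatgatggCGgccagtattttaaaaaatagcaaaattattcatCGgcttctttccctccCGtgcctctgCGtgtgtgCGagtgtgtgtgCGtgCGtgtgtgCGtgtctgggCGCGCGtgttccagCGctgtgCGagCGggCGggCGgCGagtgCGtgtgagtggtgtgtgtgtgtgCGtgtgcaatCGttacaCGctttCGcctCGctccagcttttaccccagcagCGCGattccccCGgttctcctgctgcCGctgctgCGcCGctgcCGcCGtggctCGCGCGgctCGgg

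The *PBX3* window held 43 CpG dinucleotides, more than 95.02% of the 35116 windows in the table, and the *MEIS2* window shown held 35 and its other annotated window 16. The *MEIS3* window shown held 13 and its other annotated window 14, beside a median of 14 over all windows. The 2 genes with the largest fitted differences therefore had promoters of unlike CpG content. *PKNOX1* had the most CpG dinucleotides, 46, and *PBX4* had 35, while *PBX2* had 8 and *MEIS1* 18. The 7 windows of *TGIF1* ranged from 7 to 39. The hexamer TGACAG, a motif bound by MEIS and PKNOX proteins, was searched on both strands and lay in 3 of the 16 windows, those of *PBX3* and 2 starts of *TGIF1*, beside 15.8% of all windows. The PBX and HOX motif TGATTNAT lay in 4 of the 16, at 3 starts of *TGIF1* and at the start of *MEIS2* not shown, beside 2.82% of all windows. These are matches of letters in short windows, several of which belong to the same gene, and binding was not measured.

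**Figure D1:**
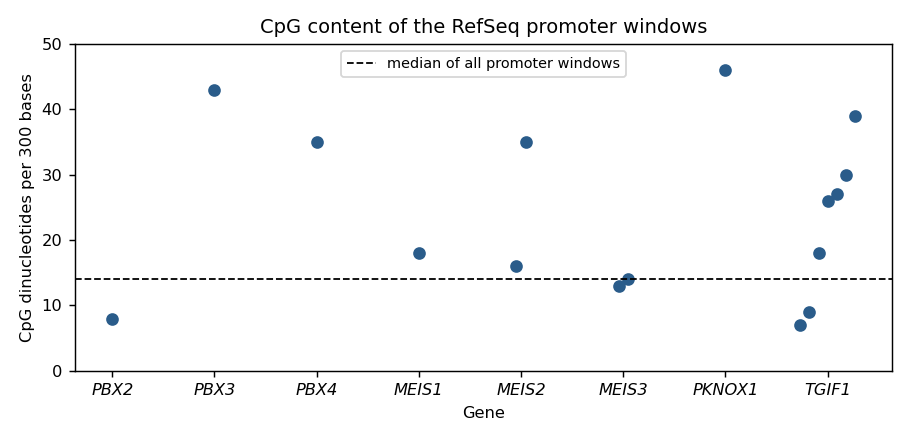
CpG dinucleotides in each RefSeq promoter window of 300 bases (y axis) for the 8 genes with a window (x axis), 1 point per annotated start. The dashed line is the median of all windows, 14; *PKNOX1* (46) and *PBX3* (43) lie far above it and both *MEIS3* windows (13 and 14) lie beside it.

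Reads on genes numbered from 6327544 to 8987768 per library. Levels are given as CPM, counts per 1000000 reads on genes after TMM scaling, and are not divided by length because the method takes about 1 read position per transcript. Reads with more than 1 alignment, 21.4% to 22.3% of the listed reads, are in no gene's count, and the share on no annotated gene was 12.7% in EZH2i replicate 3 and 7.43% to 8.51% in the other libraries. All 10 erythroid genes examined had reads, and of 9 tested *HBZ*, *HBG2* and *ALAS2* were called higher in EZH2i (adjusted p under 0.05, edgeR), beside 4.26% called over all tested genes, the list summing to 948 to 1076 CPM in DMSO and 1082 to 1184 CPM in EZH2i. Of 7 genes listed as lymphoid markers 3 were tested and 1, *CD3D* (means of 63.8 CPM in DMSO and 88.0 CPM in EZH2i), was called higher. *PTPRC*, the most abundant and not limited to lymphoid cells, was at 84.4 CPM in DMSO and 79.3 CPM in EZH2i and was not called. The list summed to 141 to 170 and 163 to 182 CPM, most of it *PTPRC* and *CD3D*. Of 6 myeloid markers 2 were tested and 1, *LYZ*, was called higher. The list summed to 12.3 to 18.0 and 21.9 to 24.5 CPM, most of it *LYZ* (means of 13.9 and 21.3 CPM). *ITGAM*, the other gene tested, had 9 to 11 reads in every library (means of 1.20 and 1.39 CPM) and was not called. *ELANE* and *CSF1R* had 0 reads in every library, *MPO* at most 1 and *CD14* at most 2. Of these 5 calls that of *HBZ* alone held in each of the 6 fits that left out a library, those of *HBG2* and *ALAS2* were lost without DMSO replicate 1, 2 or 3, that of *CD3D* also without EZH2i replicate 1, and that of *LYZ* in all 6 fits and with DESeq2 (adjusted p = 0.0882). The part of these shifts in the values below was not tested. In bulk RNA, fewer cells with a transcript and less of it per cell cannot be told apart.

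In DMSO the most abundant of the 9 transcripts was *MEIS2* (ENSG00000134138; chromosome 15, 36889204 to 37101299, minus strand), which encodes a MEIS protein active in limb, heart and brain development. It had 331, 435 and 512 reads in DMSO and 344, 411 and 368 in EZH2i, where counts here and below are in the order of the replicate numbers. The levels were 53.8 ± 3.69 CPM in DMSO and 50.4 ± 3.31 CPM in EZH2i (SD, n = 3 each), and the groups overlapped. *MEIS2* alone took 48.8% to 58.5% of the reads of the 9 genes in the DMSO libraries and 49.3% to 52.2% in the EZH2i libraries. The exact 95% binomial intervals ran from 44.9% to 52.6% for the lowest of these shares and from 55.2% to 61.8% for the highest, and they cover counting error only. *MEIS2* was between 4.36 and 8.22 times as abundant as *MEIS1* in every library. A lncRNA on the opposite strand, ENSG00000259460, shares 431 exonic bases with it, over 210135 bases from its 3′ end, and had 4 to 13 reads.

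*PKNOX1* (ENSG00000160199; chromosome 21, 42974510 to 43033931, plus strand), also called PREP1, ranked next. Its reads numbered 159, 176 and 208 in DMSO and 175, 208 and 170 in EZH2i, or 23.1 ± 2.03 and 24.8 ± 1.31 CPM (SD, n = 3 each), and the groups overlapped. Its paralog *PKNOX2* (ENSG00000165495; chromosome 11, 125164687 to 125433389, plus strand) had 0 reads in 5 libraries and 1 read in EZH2i replicate 3. A count of 0 allows up to 3 reads, so both groups of *PKNOX2* are under the limit of detection and no fold is given.

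*MEIS1* (ENSG00000143995; chromosome 2, 66433452 to 66573869, plus strand) had 76, 57 and 66 reads in DMSO and 57, 50 and 69 in EZH2i. Its level was 8.71 ± 2.77 CPM in DMSO and 7.97 ± 1.80 CPM in EZH2i (SD, n = 3 each), with DMSO replicate 1 the highest of all libraries. The antisense genes *MEIS1-AS2* and *MEIS1-AS3* share exonic bases with it but had at most 2 reads in any library. *TGIF1* (ENSG00000177426; chromosome 18, 3411608 to 3459978, plus strand) had 50, 48 and 29 reads in DMSO and 36, 33 and 54 in EZH2i, or 5.60 ± 2.27 and 5.59 ± 1.89 CPM (SD, n = 3 each). The replicates of *TGIF1* spread further within a group than the group means lay apart.

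*PBX2* (ENSG00000204304; chromosome 6, 32184733 to 32190202, minus strand), a broadly expressed PBX gene, had 38, 31 and 25 reads in DMSO and 24, 37 and 32 in EZH2i. The levels were 4.15 ± 1.61 and 4.17 ± 0.794 CPM (SD, n = 3 each). Another annotated RNA on the same strand, ENSG00000273333, shares 662 exonic bases of *PBX2* and its 3′ end, and had 0 reads in every library. A read on shared bases can be assigned to neither gene in such counting, so the level of *PBX2* is uncertain and may be too low. *PBX4* (ENSG00000105717; chromosome 19, 19561707 to 19618693, minus strand), a PBX gene known from testis, had 10, 21 and 24 reads in DMSO and 14, 20 and 11 in EZH2i, or 2.26 ± 0.614 and 2.0 ± 0.481 CPM (SD, n = 3 each). The groups of *PBX2* and of *PBX4* overlapped.

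*MEIS3* and *PBX3* were the genes whose groups did not overlap, and both were near the lower limit of counting in DMSO. *MEIS3* (ENSG00000105419; chromosome 19, 47403124 to 47419527, minus strand), a MEIS gene known from hindbrain patterning, had 5, 10 and 11 reads in DMSO and 30, 12 and 26 in EZH2i. That is 1.07 ± 0.253 CPM in DMSO and 3.10 ± 1.38 CPM in EZH2i (SD, n = 3 each). EZH2i replicate 2, with 12 reads or 1.51 CPM, lay close to the highest DMSO library at 1.25 CPM, and the other EZH2i libraries lay well above both. *PBX3* (ENSG00000167081; chromosome 9, 125747345 to 125967377, plus strand), the leukemia partner of MEIS1, had 10, 9 and 0 reads in DMSO and 18, 16 and 15 in EZH2i, or 0.877 ± 0.799 and 2.20 ± 0.215 CPM (SD, n = 3 each). DMSO replicate 3, which had no *PBX3* read, was the most deeply sequenced library. The processed copies *PBX2P1*, *MEIS3P1*, *MEIS3P2* and *TGIF1P1* held 2 reads in all, every one of them on *PBX2P1*.

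**Figure D2:**
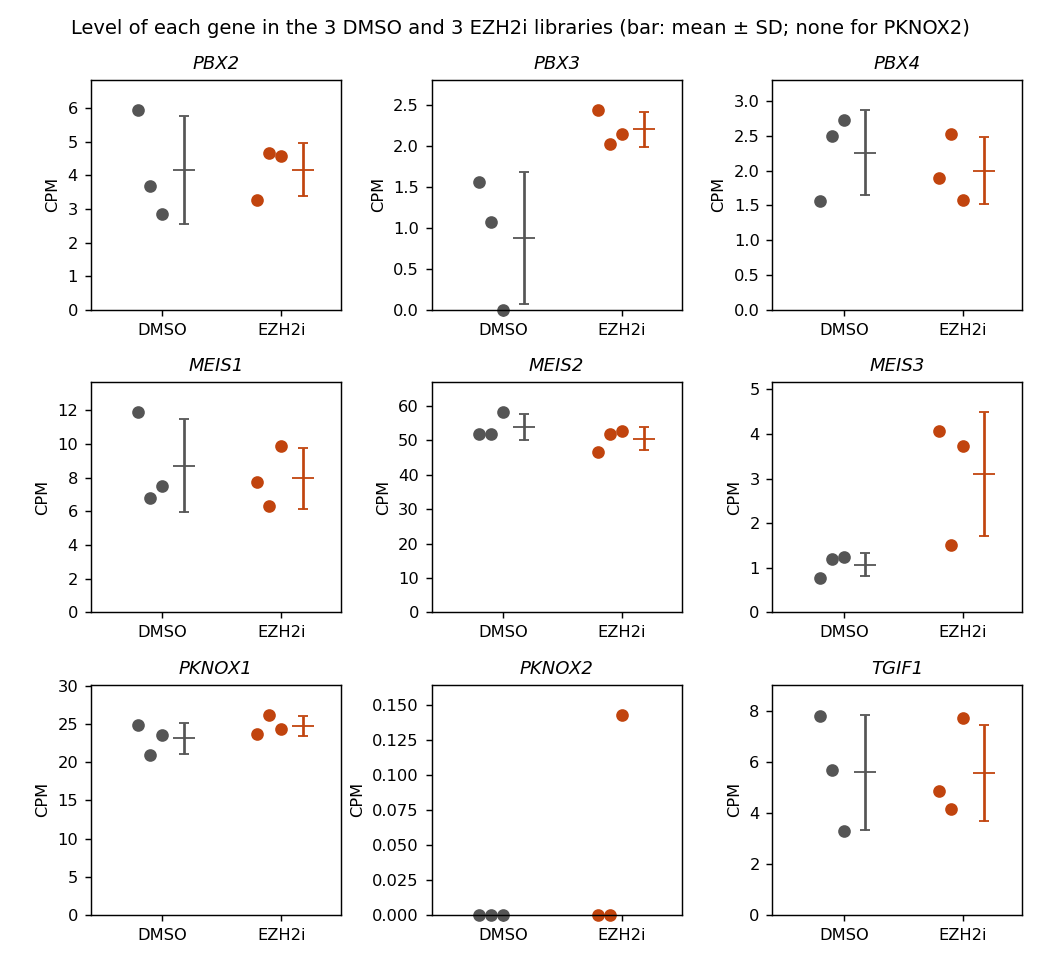
Level in CPM (y axis, from 0, with its own range per gene) of each of the 9 genes in the DMSO and EZH2i libraries (x axis), 1 point per library, with the mean ± SD of 3 libraries beside them except for *PKNOX2*. The EZH2i points lie above all DMSO points for *MEIS3* (1.51 to 4.06 against 0.782 to 1.25 CPM) and *PBX3* (2.02 to 2.44 against 0 to 1.56 CPM), and the groups overlap for the other genes.

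Ordered by mean CPM, the DMSO libraries ran *MEIS2*, *PKNOX1*, *MEIS1*, *TGIF1*, *PBX2*, *PBX4*, *MEIS3*, *PBX3* and *PKNOX2*. Neighbours whose ranges overlapped were *MEIS1* and *TGIF1*, *TGIF1* and *PBX2*, *MEIS3* and *PBX3*, and *PBX3* and *PKNOX2*, so their order is not resolved. In EZH2i the first 5 places were the same, followed by *MEIS3*, *PBX3*, *PBX4* and *PKNOX2*, and the ranges overlapped at each step from *MEIS1* down to *PBX4*. The summed level of the 9 genes was 99.6 ± 6.38 CPM in DMSO and 100.2 ± 6.21 CPM in EZH2i (SD, n = 3 each), and the ranges of the groups overlapped.

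The change with EZH2 inhibition was taken from edgeR's quasi-likelihood test over all 12364 genes that passed its filter on low counts, with Benjamini-Hochberg adjustment over those genes. Of the 9 genes, 8 passed the filter. *MEIS3* passed through its EZH2i libraries alone and *PBX3* with its EZH2i libraries and 1 DMSO library, so at these depths both came to be tested because they were higher in EZH2i. None of the 9 was called at an adjusted p under 0.05 in edgeR's test, beside 4.26% of all tested genes, and none was called by DESeq2 or limma-voom. At an unadjusted p under 0.05 edgeR had 2 of the 8 that passed the filter, *MEIS3* and *PBX3*, beside 19.1% of all tested genes. These are also the 2 whose groups did not overlap, which held for 24.5% of all tested genes. An exact permutation test on any 1 gene could reach no p below 0.1 with groups of 3 libraries.

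For *MEIS3* edgeR fitted a log2 fold change of 1.48 with a 95% interval of 0.56 to 2.40 (standard error 0.436, adjusted p = 0.066), which is 2.79-fold with an interval of 1.47 to 5.27, higher in 3 of 3 EZH2i libraries. It was past the threshold without EZH2i replicate 2 (log2 fold change 1.82, adjusted p = 0.0213, edgeR) and without a filter on low counts (1.46, adjusted p = 0.0192, edgeR). Over all alternatives its adjusted p lay between 0.0192 and 0.202 and its log2 fold change between 1.23 and 1.82. The difference of *MEIS3* thus lay at the edge of the threshold and depended on which genes and libraries entered the fit.

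For *PBX3* it was 1.41 with a 95% interval of 0.16 to 2.65 (standard error 0.59, adjusted p = 0.197, edgeR), or 2.65-fold with an interval of 1.12 to 6.28. Without DMSO replicate 3, the library with 0 reads, its log2 fold change was 0.76 (adjusted p = 0.417, edgeR), and over all alternatives it ran from 0.76 to 2.26 with adjusted p from 0.104 to 0.417. The size of the *PBX3* difference therefore rested in large part on 1 library.

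The 6 other tested genes had log2 fold changes from -0.19 (*PBX4*, standard error 0.368) to 0.10 (*PKNOX1*, standard error 0.137), with adjusted p from 0.698 to 0.984 (edgeR). A p that misses the threshold does not show that a level was the same, and the intervals say what these depths allow. For *MEIS2* the 95% interval of the fold ran from 0.792 to 1.1 and for *PKNOX1* from 0.879 to 1.31. For *MEIS1* it ran from 0.644 to 1.33. The genes with fewer reads were less well bounded, with 0.649 to 1.62 for *PBX2*, 0.640 to 1.6 for *TGIF1* and 0.511 to 1.5 for *PBX4*. The signs of the log2 fold changes of *PBX2*, *MEIS1* and *TGIF1* changed when single libraries were left out.

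**Figure D3:**
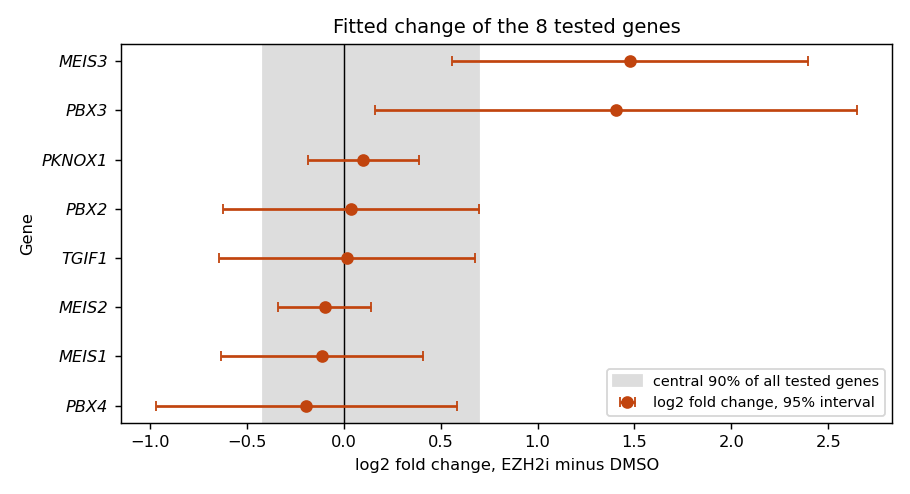
Log2 fold change of EZH2i minus DMSO (x axis) with its 95% interval from edgeR for the 8 tested genes (y axis); the grey band spans the 5th to the 95th percentile of all tested genes, -0.42 to 0.70. *MEIS3* (1.48) and *PBX3* (1.41) have intervals above 0, unadjusted for the number of genes tested, and the other intervals include 0.

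**Figure D4:**
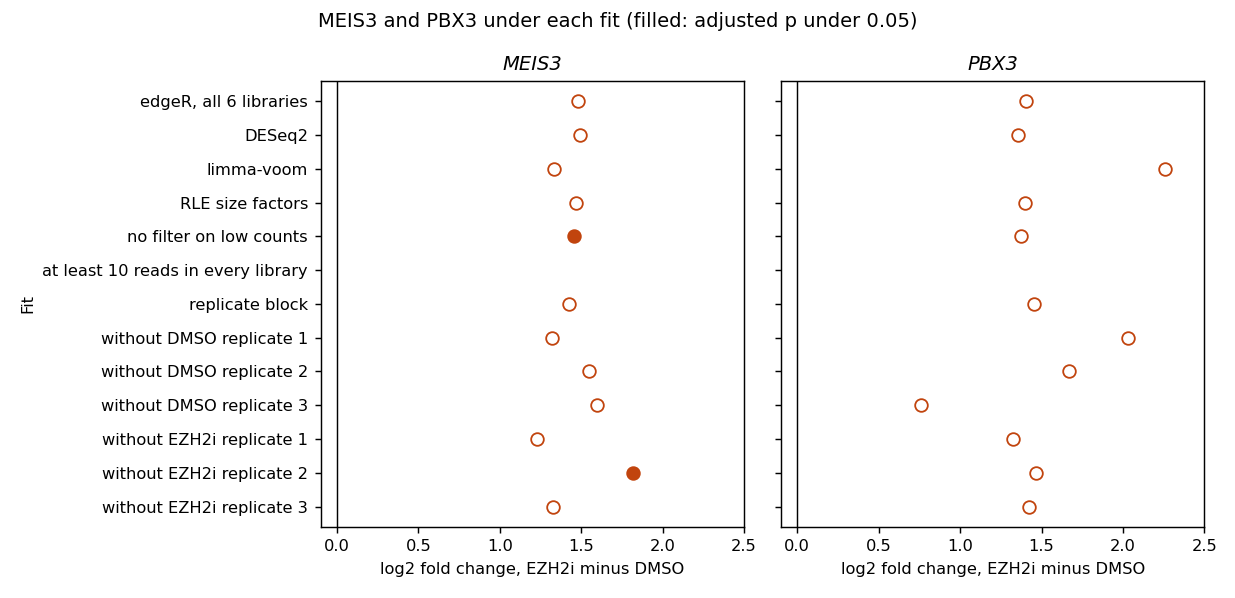
Log2 fold change of EZH2i minus DMSO (x axis) of *MEIS3* and *PBX3* under each fit (y axis), with filled points where the adjusted p was under 0.05. Neither gene could be fitted with at least 10 reads required in every library. *MEIS3* stays between 1.23 and 1.82, while *PBX3* drops to 0.76 without DMSO replicate 3 and reaches 2.26 with limma-voom.

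The genes most like *MEIS3*, the gene with the largest fitted difference, were sought among 9970 other tested genes of at least 5 CPM. Over the 6 libraries the highest Pearson correlations of log2 CPM were those of *UBALD1* (0.993), *ALPK1* (0.992) and *FAM131B-AS2* (0.987). Their own log2 fold changes were 0.46, 0.54 and 0.28 (adjusted p = 0.135, 0.136 and 0.291, edgeR), so none of them was called. As 159 genes had a correlation above 0.9 with *MEIS3* over only 6 libraries, the likeness is a description of these libraries.

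The HOX proteins are the main partners of PBX. Of 39 HOX genes, 24 had at most 3 reads in every library, 15 of them no read at all, and the 20 HOXA and HOXD genes reached at most 4 reads in any library. The HOX genes expressed in these cells lay in the HOXB and HOXC clusters, where 13 were tested. None of the 13 was called by edgeR, DESeq2 or limma-voom, and 0 had an unadjusted p under 0.05 in edgeR, where the shares over all tested genes were 4.26% and 19.1%. *HOXB4* was at 111 ± 9.68 and 120 ± 25.4 CPM in DMSO and EZH2i, *HOXB9* at 101 ± 13.5 and 93.2 ± 17.5 CPM, and *HOXC9* at 60.6 ± 6.17 and 60.6 ± 9.94 CPM (SD, n = 3 each). By mean CPM each of these exceeded *MEIS2*. Over the 13 tested HOX genes the median log2 fold change was -0.10, beside -0.00021 for all tested genes, while with DESeq2, which fits more genes of low count, it was 0.0775 beside 0.0545 for all genes.

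Of 7 other TALE genes, IRX1 to IRX6 and MKX, *IRX5* alone was tested. It was at 19.4, 17.2 and 25.1 CPM in DMSO and at 14.4, 16.5 and 14.9 CPM in EZH2i, and edgeR gave it -0.43 on the log2 scale with a standard error of 0.167 (adjusted p = 0.157). Every EZH2i library of *IRX5* lay below every DMSO library, and the gene was not called. Groups that did not overlap, in either direction, were found for 24.5% of all tested genes.

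Among 14 genes known as targets of MEIS1 or HOXA9 in blood cells, a list written with results of these libraries known, 10 were tested, 2 were called higher and none lower by edgeR, and all 10 had a log2 fold change above 0, with a median of 0.31. Over all tested genes 4.26% were called and the median was -0.00021. The 10 log2 fold changes ran from 0.0038 to 0.81, and *HOXA9* itself had 0 reads in every library. *ID2*, an inhibitor of helix-loop-helix factors, was at 15.6, 11.99 and 15.9 CPM in DMSO and rose to 21.8, 25.9 and 26.4 CPM in EZH2i, which edgeR fitted as 0.77 on the log2 scale (adjusted p = 0.0113). This call was lost without DMSO replicate 2, the lowest library (adjusted p = 0.0755, edgeR). *EPAS1*, which encodes the hypoxia factor HIF-2α, was at 35.8 ± 3.67 and 48.6 ± 1.80 CPM (SD, n = 3 each) and was called higher by edgeR (log2 fold change 0.44, adjusted p = 0.0447) but not by DESeq2 (adjusted p = 0.0812), with the replicate block (adjusted p = 0.0516, edgeR) or in any fit that left out a library (adjusted p from 0.0577 to 0.158, edgeR). *MYB*, *CCND3* and *CDK6*, the most abundant of the list, had log2 fold changes of 0.04, 0.26 and 0.18 (adjusted p = 0.906, 0.207 and 0.354, edgeR). The transcript of MEIS1 itself was not called and had a log2 fold change of -0.11.

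Of 10 genes for SMAD proteins and corepressors that work with TGIF1, all were tested and none was called by edgeR, DESeq2 or limma-voom, with 3 at an unadjusted p under 0.05 in edgeR, beside 4.26% called and 19.1% under that p over all tested genes. Their log2 fold changes ran from -0.26 for *CTBP1* to 0.36, around a median of 0.09. *HDAC1* was at 186 ± 7.79 and 170.2 ± 1.74 CPM and *SIN3A* at 75 ± 3.99 and 74.4 ± 1.29 CPM in DMSO and EZH2i (SD, n = 3 each).

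**Figure D5:**
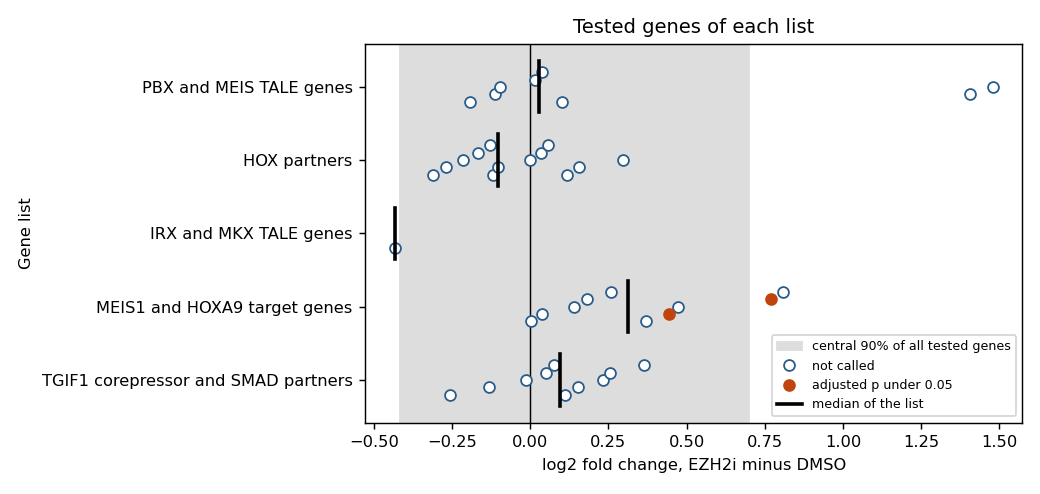
Log2 fold change of EZH2i minus DMSO (x axis) of every tested gene of 5 lists (y axis), with filled points for genes called at an adjusted p under 0.05 and a black bar at each list's median; the grey band spans -0.42 to 0.70, the 5th to the 95th percentile of all tested genes. Within the first list *MEIS3* and *PBX3* stand apart at 1.48 and 1.41 and the other 6 lie between -0.19 and 0.10, and the called genes are *ID2* and *EPAS1* among the MEIS1 and HOXA9 targets.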

How the data were processed

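RNA from 3 DMSO and 3 EZH2i cultures was sequenced with a 3′ mRNA kit. The authors aligned the reads and deposited raw counts per Ensembl gene for each library, without normalization or pooling. The submitters' processing notes name STAR 2.6.0c, HTSeq 0.11.2 and GRCh38, and the study took its gene annotation from Ensembl for that build, an earlier release than the one used here for symbols and positions. The strand setting of the counting is not given in the sources used here. The authors' table of their own DESeq2 comparison (mean normalized counts, fold changes, p-values) was not used. Rows that name no gene, 32.1% to 36.4% of the listed reads, were left out.

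Counts of all genes were fitted with edgeR 4.0.16 in R 4.3.3 (TMM; filterByExpr, minimum count 10; default dispersion estimates; the quasi-likelihood F-test of glmQLFTest, two-sided, treatment as the only term, threshold 0.05). The standard error is the size of the log2 fold change divided by the square root of F, and intervals use the fit's degrees of freedom. Alternatives were DESeq2 1.42.0, limma-voom (limma 3.58.1), RLE size factors, other filters, a threshold of 0.01, a replicate block and leaving out each library. The edgeR, DESeq2 and limma-voom fits of all libraries were tested on simulated data, and the other alternative fits were not. Replicates of a group differed by more than sampling noise (chi-square per degree of freedom 4.56 to 12.8), so none was counted as a copy.

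The members and gene lists were chosen with earlier results of these data known. Named are all 9 members, the called genes and otherwise the 3 most abundant genes of each list and 3 genes most like the member with the largest fitted difference. Positions and overlaps come from GENCODE 44 on GRCh38 (60401 of 60671 identifiers matched) and promoters from RefSeq. TALE genes outside the 9 and the lists are not described here.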

Additional observations from a re-analysis of the deposited data

How the results depend on the processing

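In place of 0 of the 9 genes, 1, *MEIS3*, was called without a filter on low counts and without EZH2i replicate 2. Over the 6 fits without a library the count was 0 to 1, and it was 0 under DESeq2, limma-voom, RLE size factors and the replicate block. At the stricter threshold, set on the same edgeR fit, the count could only be 0. With at least 10 reads in every library it was 0 of the 6 genes with a fit, which did not include *MEIS3* and *PBX3*. Replicate numbers did not pair the samples (correlations of deviations -0.0511, -0.0175 and -0.017), and the block changed no call of the 9 genes. Of all genes tested, 527 were called, 599 with the block, 928 without a filter, 148 at an adjusted p under 0.01, 213, 209 and 240 without DMSO replicates 1, 2 and 3, and 399 to 536 without an EZH2i library. Signs turned for log2 fold changes near 0: *PBX2* (-0.18 to 0.35) and *MEIS1* (-0.29 to 0.15) over the fits without a library, and *TGIF1*, -0.0119 with DESeq2, -0.00789 without a filter and -0.28 to 0.31 without a library. The median log2 fold change of the TALE genes ran from -0.0426 to 0.23 without a library. That of the HOX genes was 0.0775 with DESeq2, 0.0803 without a filter and -0.12 to 0.0298 without a library. The median of all genes was 0.0545 with DESeq2 and 0.0437 without a filter. For the MEIS1 and HOXA9 targets the median was 0.39 with DESeq2 and 0.21 to 0.36 without a library, and for the TGIF1 partners 0.028 to 0.16. DESeq2 and the unfiltered fit include more low-count genes, and the cause of the other shifts was not tested. Counts of 0 to 30 reads for *MEIS3* and *PBX3* limit what their difference can show.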
